A study of Mus musculus with 2 samples.

Results

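The 8 genes studied here are used to mark progenitor-like fibroblasts of the vessel adventitia, and were followed through every cell class of the mouse aorta in 2 single-cell RNA sequencing libraries. The 8 members were Ly6a, Ly6c1, Cd34, Pi16, Dpp4, Thy1, Gli1 and Cd55, found by symbol among the 32285 genes of the deposited tables, with 1 row each. They were named as a set from outside these data, not from their values here.

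The adventitia is the outer connective tissue layer of the aorta, and some of its fibroblasts carry surface proteins that are also used to sort stem and progenitor cells. Cells with Pi16 and Dpp4 have been described in many mouse tissues as a fibroblast state found around vessels and in fascia, from which more specialised fibroblasts are thought to arise. Gli1, in contrast, is a transcription factor and direct target of Hedgehog signalling, and marks perivascular mesenchymal cells, including some of the adventitia.

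One library came from wild-type mice and the other from knock-in mice with a mutated matrix Gla protein (MGP, a secreted inhibitor of calcification that binds bone morphogenetic proteins). All mice were 1 month old, and males and females were used for both genotypes. Per the labels' protocols the adventitia was stripped from the aortas under a microscope, the rest was digested with Liberase, and dead cells were removed by DAPI staining and sorting. No source used here gives the strain, how many mice were pooled, or which residue was mutated. Each genotype had 1 library, so no difference between genotypes has a replicate check, no p-value is given, and every interval covers counting error only.

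After filtering, 3588 wild-type cells (median 20395.5 UMIs, unique molecular identifiers that count captured RNA molecules) and 6089 knock-in cells (median 11650 UMIs) were kept, and 4 barcodes were found in both libraries. Fibroblast-like cells numbered 2690 and 2908, in 3 clusters made without the members among the clustering genes. They are called here by a leading gene: the Wnt2 cluster (led by Wnt2, Cadm3 and Lrrn4cl; 796 wild-type and 455 knock-in cells), the Meox2 cluster (led by Meox2, C2 and Acp5; 526 and 952) and the Fmod cluster (led by Pex5l, Fmod and Adamts17; 1368 and 1501). Cells of fibroblast type were thus plentiful although the adventitia was removed, and whether a cluster came from remaining adventitia was not tested. The Meox2 cluster was shallow, above all in the knock-in library, with medians of 12319.5 and 3954.5 UMIs per cell. The other named classes were smooth muscle cell (SMC)-like (295 and 2592 cells), macrophage or monocyte-like (351 and 292), endothelial-like (64 and 45) and mesothelial-like (8 and 0).

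Of the 8 members, 5 have an entry in the RefSeq promoter table used here (build GRCm38.p6): Ly6c1, Cd34, Pi16, Dpp4 and Cd55. The 250 bases upstream of the start are printed for 3 of them. Among the fibroblast-like clusters only, these 3 were the most restricted to the Wnt2 cluster. Beside them stands the same window of the near-copies Cd55b and Ly6c2, which were almost silent in fibroblast-like cells. Capitals mark matches, on either strand, to a GC box (GGGCGG), a TEAD motif (GGAATG), an E-box (CAGCTG) or a TATA motif (TATAAA).
Dpp4, chr2:62412232-62412481, minus strand: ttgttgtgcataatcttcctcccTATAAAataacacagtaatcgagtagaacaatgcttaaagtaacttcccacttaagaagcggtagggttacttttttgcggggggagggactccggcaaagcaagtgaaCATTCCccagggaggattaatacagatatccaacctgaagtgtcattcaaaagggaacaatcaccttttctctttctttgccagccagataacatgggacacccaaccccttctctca
Cd55, chr1:130462745-130462994, minus strand: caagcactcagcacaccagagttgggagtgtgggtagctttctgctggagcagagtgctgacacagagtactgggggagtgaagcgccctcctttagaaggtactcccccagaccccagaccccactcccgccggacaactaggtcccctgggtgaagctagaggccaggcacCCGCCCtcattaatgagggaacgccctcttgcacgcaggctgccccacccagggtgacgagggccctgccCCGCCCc
Cd55b, chr1:130423044-130423293, minus strand: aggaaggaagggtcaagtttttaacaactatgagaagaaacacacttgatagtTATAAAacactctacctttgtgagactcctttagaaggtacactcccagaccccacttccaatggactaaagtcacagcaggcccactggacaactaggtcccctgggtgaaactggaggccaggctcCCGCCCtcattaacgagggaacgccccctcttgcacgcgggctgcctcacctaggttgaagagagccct
Ly6c1, chr15:75048838-75049087, minus strand: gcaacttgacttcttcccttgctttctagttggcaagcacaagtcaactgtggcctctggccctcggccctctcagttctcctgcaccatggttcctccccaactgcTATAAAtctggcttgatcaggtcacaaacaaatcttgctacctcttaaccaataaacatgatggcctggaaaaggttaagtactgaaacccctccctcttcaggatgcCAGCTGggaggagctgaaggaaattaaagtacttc
Ly6c2, chr15:75111972-75112221, minus strand: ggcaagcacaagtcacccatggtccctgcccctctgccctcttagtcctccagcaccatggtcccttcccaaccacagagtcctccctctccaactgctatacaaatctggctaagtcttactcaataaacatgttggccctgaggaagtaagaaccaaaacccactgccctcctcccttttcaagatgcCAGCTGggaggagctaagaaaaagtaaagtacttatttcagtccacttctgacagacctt

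These 3 promoters share little of what was searched. Cd55 held the GC box at 77 and 7 bases before the start and is 64.0% G and C. Dpp4 (43.6% G and C) held a TEAD motif at 118 bases and Ly6c1 (48.4%) an E-box at 35 bases before the start, and both held a TATA motif far upstream, at 227 and 143 bases. Among all 27025 promoters of the table, windows of the same length held the GC box in 32.9%, the TEAD motif in 12.6%, the E-box in 12.8% and the TATA motif in 13.0%. The letters searched for AP-1 (TGANTCA), TCF/LEF (CTTTGAT) and GLI (GACCACCCA) were in 0 of the 5 members' windows and in 6.87%, 3.23% and 0.211% of all, and no matches overlapped. A match is only a run of letters and was not tied to a factor.

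The near-copies look alike upstream but were not expressed alike. Cd55 and Cd55b were identical at 169 of 227 aligned bases (74.4%) and Ly6c1 and Ly6c2 at 164 of 216 (75.9%), against 126 of 215 (58.6%) for the unrelated pair Dpp4 and Cd55. In fibroblast-like cells Cd55 had 5721 wild-type and 2520 knock-in UMIs and Cd55b had 12 and 8. Ly6c1 had 10897 and 6312 UMIs and Ly6c2 had 3 and 2. Ly6c2, a monocyte gene, had 12 of its 15 wild-type UMIs in macrophage or monocyte-like cells. No source used here says how reads shared by near-identical copies were counted, so the split within each pair is uncertain.

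The members had their highest fibroblast-like level in the Wnt2 cluster with 1 exception. This held for 7 of 8 members in each library, while 41.7% (wild-type) and 39.9% (knock-in) of the 14066 genes tested were highest there. Levels are given in CPM, a gene's UMIs per 1000000 UMIs of the cells they came from. The exception was Gli1.

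Among the fibroblast-like clusters, Dpp4 was the most restricted member. It encodes a surface peptidase (CD26) that trims chemokines and incretins. Its level in the Wnt2 cluster was 49.5 CPM (interval 46.4 to 52.8) in wild-type cells and 42.4 CPM (38.1 to 47.1) in knock-in cells. In the Meox2 cluster it had 0 and 1 UMIs, and in the Fmod cluster 4 and 3 UMIs. Against the floor of 3 counts in the Meox2 cluster, the wild-type Wnt2 cluster was at least 111.6-fold higher. The Wnt2 cluster thus held 99.6% and 98.9% of the Dpp4 UMIs of fibroblast-like cells.

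Cd55 and the Ly6 genes came next in steepness. Cd55, decay-accelerating factor, protects cells from complement. It stood at 257 and 261 CPM (wild-type and knock-in) in the Wnt2 cluster, at 22.3 and 21.9 CPM in the Meox2 cluster and at 24.7 and 14.7 CPM in the Fmod cluster. Ly6c1, a small lipid-anchored surface protein, stood at 519 and 600 CPM in the Wnt2 cluster, 104 and 192 CPM in the Meox2 cluster and 16.0 and 22.8 CPM in the Fmod cluster. Ly6a encodes Sca-1, the stem cell antigen used to sort mouse progenitors, and fell along the same order of clusters. Its levels were 1743 and 1981 CPM, then 703 and 1005 CPM, then 111 and 162 CPM. For all 3 genes the knock-in and wild-type values of a cluster lay closer together, as ratios, than the values of different clusters within a library, except for Cd55 between the Meox2 and Fmod clusters.

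Cd34, Pi16 and Thy1 were broader. Cd34, a sialomucin of blood progenitors, endothelium and fibroblasts, stood at 888 and 762 CPM in the Wnt2 cluster, 674 and 506 CPM in the Meox2 cluster and 274 and 258 CPM in the Fmod cluster. Pi16, a peptidase inhibitor family protein, stood at 2858 and 2147 CPM, 1238 and 1503 CPM, and 709 and 857 CPM in the same order. Thy1 (CD90), an adhesion protein of many mesenchymal cells and T cells, stood at 142 and 197 CPM in the Wnt2 cluster. Its levels in the Meox2 cluster were 54.6 and 61.3 CPM, and in the Fmod cluster 40.5 and 56.0 CPM. For each of the 3 genes, even the lowest fibroblast-like cluster stood well above the upper limit of free RNA there, which reached 14.3 CPM for Pi16 in the wild-type Fmod cluster.

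Gli1 did not follow the others. Its levels were 21.2 and 20.7 CPM in the Wnt2 cluster, 30.3 and 23.7 CPM in the Meox2 cluster and 18.8 and 24.2 CPM in the Fmod cluster. The order of clusters differed between the libraries, and in the knock-in library the intervals of all 3 clusters overlapped (17.7 to 24.1, 19.7 to 28.3 and 22.1 to 26.5 CPM). In the wild-type library the Meox2 cluster (26.3 to 34.8 CPM) lay above both others.

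**Figure D1:**
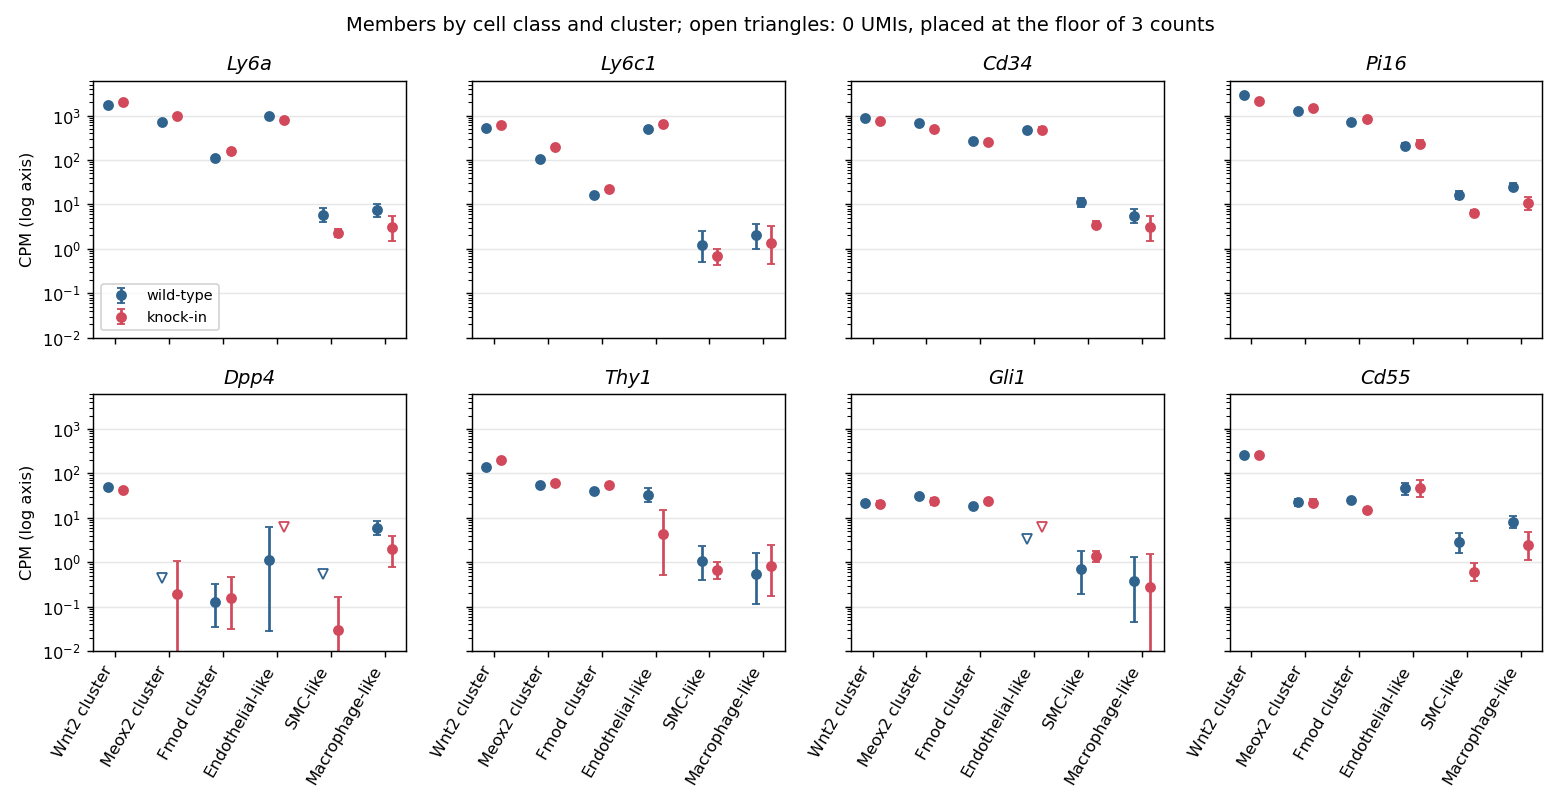
Level of each member (CPM, log axis) in the 3 fibroblast-like clusters and 3 other cell classes, wild-type and knock-in; bars are 95% Poisson intervals, 1 library per genotype, and open triangles mark 0 UMIs at the floor of 3 counts. Dpp4 drops from 49.5 and 42.4 CPM in the Wnt2 cluster to 1 UMI or less in the Meox2 cluster, while Gli1 spans 1.61-fold (wild-type) and 1.17-fold (knock-in) across the fibroblast-like clusters.

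Outside the fibroblast-like cells, the endothelial-like cells shared some of the members. Ly6a stood there at 962 and 793 CPM, Ly6c1 at 493 and 644 CPM and Cd34 at 477 and 481 CPM. Each was above its level in the Fmod cluster. Ly6c1 was near its Wnt2 cluster level (519 and 600 CPM). Ly6a was above its Meox2 cluster level in the wild-type library (703 CPM) and below it in the knock-in library (1005 CPM). Cd34 was below its Meox2 cluster level in both (674 and 506 CPM). In endothelial-like cells Pi16 stood at 212 and 234 CPM and Cd55 at 45.8 and 46.8 CPM. Dpp4 had 1 and 0 UMIs and Gli1 had 0 in both libraries. The floor of 3 counts in these cells stood at 3.35 and 6.38 CPM (wild-type and knock-in). With 64 and 45 cells these levels rest on few cells, and Thy1 (30 and 2 UMIs) was found in 7.81% and 2.22% of them.

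In SMC-like and macrophage or monocyte-like cells the members were low, and several were near the upper limit set by free RNA. Pi16 stood at 16.7 and 6.40 CPM in SMC-like cells, where the upper limit of free RNA was 8.88 and 5.88 CPM, and Ly6a at 5.86 and 2.29 CPM against 4.39 and 2.77 CPM. Cd34 was above it, at 11.2 and 3.49 CPM against 2.72 and 1.61 CPM. Dpp4 had 0 and 1 UMIs in SMC-like cells. Gli1 in knock-in SMC-like cells was above its free RNA limit, at 1.35 CPM against 0.142 CPM, with a UMI in 1.66% of cells. In macrophage or monocyte-like cells Dpp4 (5.93 and 1.94 CPM against 0.135 and 0.0537) lay above that limit, and Ly6c1 (2.04 and 1.39 CPM against 2.84 and 1.08) lay near it.

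The 8 mesothelial-like cells, all from the wild-type library, had the highest Dpp4 level of any named class, 421 CPM (345 to 508), with a UMI in every cell. They also held Cd34 (401 CPM), Pi16 (125 CPM) and Cd55 (113 CPM), and only 5 UMIs of Ly6a. Because mesothelial-like cells carry Dpp4, mesothelial markers were looked up in the Wnt2 cluster. The 6 markers summed to 6.53 CPM in the wild-type library, with Upk1b and Lrrn4 at 0, and to 1.10 CPM in the knock-in library, with 5 of 6 at 0. These sums were above those of the Meox2 cluster (0.296 and 0 CPM) and the Fmod cluster (0.385 and 0.312 CPM). Whether mesothelial cells added to the Wnt2 cluster was not tested.

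Shares of cells were compared after each cell was thinned to 3000 UMIs. In the Wnt2 cluster (795 wild-type and 447 knock-in cells deep enough), a Dpp4 UMI was found in 10.1% and 8.95% of cells, against 24.4% and 22.9% before thinning. In the Meox2 and Fmod clusters the thinned share was at most 0.171%. Only 463 of 526 wild-type and 584 of 952 knock-in Meox2 cluster cells were deep enough. Thinned values of that cluster therefore describe its deeper cells. Ly6a was found in 92.5% and 94.6% of thinned Wnt2 cluster cells, 70.0% and 71.7% of Meox2 cluster cells and 17.4% and 25.9% of Fmod cluster cells, against 2.37% and 0.813% of SMC-like cells. Cd55 was found in 31.1% and 26.0% of Wnt2 cluster cells and in at most 6.48% of the others. Gli1 lay between 5.84% and 8.42% in all 3 clusters and both libraries.

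**Figure D2:**
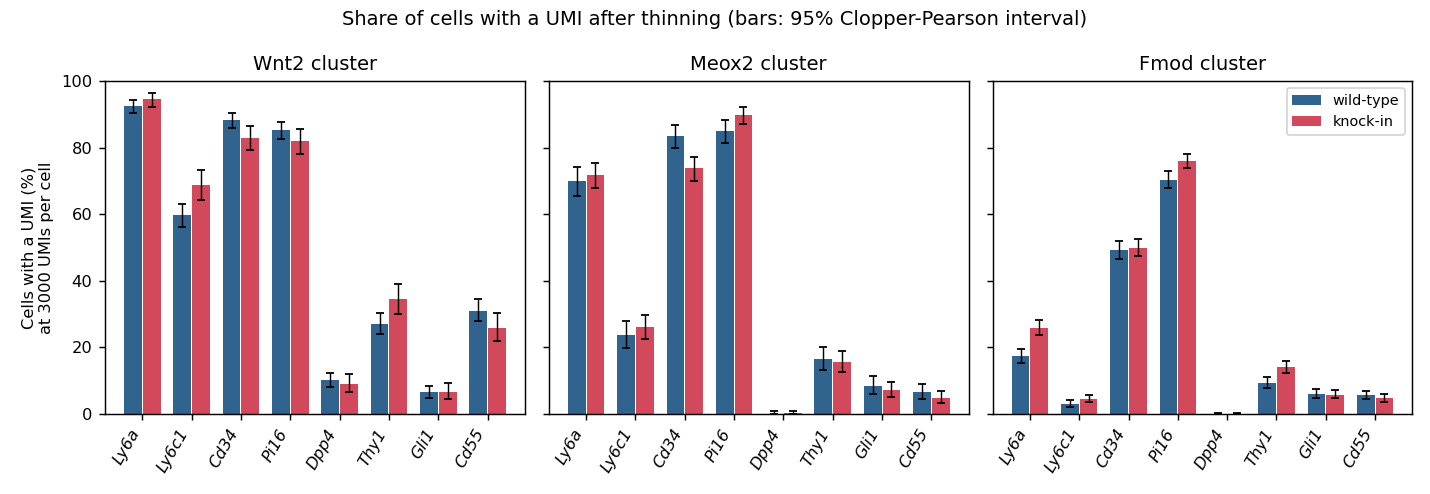
Share of cells with a UMI of each member (percent) after thinning to 3000 UMIs, in the 3 fibroblast-like clusters of each library, with 95% Clopper-Pearson intervals. Dpp4 reaches 10.1% and 8.95% in the Wnt2 cluster and at most 0.171% in the other 2, and Pi16 and Cd34 are common in all 3 panels.

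Single cells held several members at once. A thinned Wnt2 cluster cell had a median of 4 members in both libraries, a Meox2 cluster cell 3 and a Fmod cluster cell 2. At least 5 members were found in 34.5% and 34.9% of Wnt2 cluster cells, 6.05% and 7.36% of Meox2 cluster cells and 0.805% and 1.14% of Fmod cluster cells. All 8 were found in 1 cell of each library.

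Within the Wnt2 cluster, Dpp4 marked a subset with more of every other member but Gli1. The 194 wild-type cells with a Dpp4 UMI were set beside the 602 without, and 104 knock-in cells beside 351. Cd55 stood at 564 CPM with and 143 CPM without Dpp4 in the wild-type library (log2 ratio 1.98, interval 1.90 to 2.06). In the knock-in library it stood at 565 and 126 CPM (2.16, 2.03 to 2.29). Pi16 stood at 5558 and 1861 CPM in wild-type cells (1.58) and at 3409 and 1591 CPM in knock-in cells (1.10). The log2 ratios of Ly6c1 were 0.96 and 0.50, of Thy1 0.82 and 0.84, of Ly6a 0.55 and 0.46, and of Cd34 0.31 and 0.37.

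Gli1 went the other way. It stood at 12.3 CPM in wild-type cells with Dpp4 and 24.5 CPM in those without (-1.0, -1.41 to -0.60), and at 13.2 and 24.0 CPM in the knock-in library (-0.86, -1.46 to -0.30). Cells with a Dpp4 UMI were deeper, with medians of 24852.5 against 22365.5 UMIs and 21768.5 against 15457 UMIs. Among cells of 8000 to 20000 UMIs (34 with and 194 without in the wild-type library, 40 and 209 in the knock-in library) every sign was kept but the sizes moved. In wild-type cells Pi16 went from 1.58 to 2.19, above Cd55 at 1.73, while Ly6c1 went to 1.44 and Ly6a to 1.06. In knock-in cells Cd55 stayed the highest at 2.49, with Pi16 at 1.55 and Ly6c1 at 0.83. The intervals of Gli1 then included 0 (-0.91, -2.17 to 0.14, and -0.56, -1.69 to 0.40). Cells without a Dpp4 UMI include cells that express it below detection. How many of all genes were higher in cells with Dpp4 is not given, so these ratios are descriptions.

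**Figure D3:**
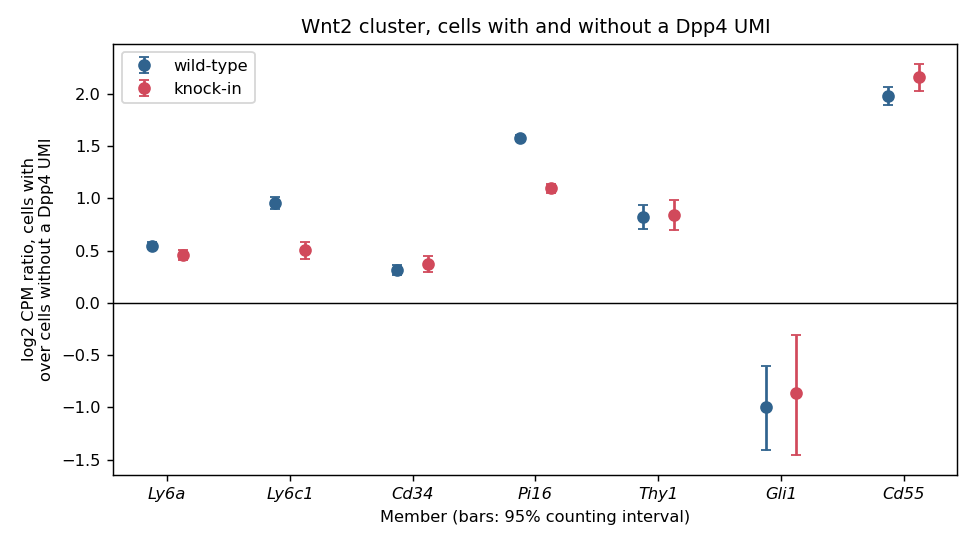
Log2 ratio of CPM in Wnt2 cluster cells with over without a Dpp4 UMI for the 7 other members, wild-type and knock-in, with 95% counting intervals. Over all depths, as plotted, Cd55 is the highest (1.98 and 2.16) and Gli1 the only member below 0 (-1.0 and -0.86).

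Pairs of members were also counted in the same Wnt2 cluster cells after thinning. Of wild-type cells with Dpp4, 70.0% also had Cd55, and of knock-in cells 67.5%; both together were 2.25 and 2.60 times the product of the separate shares. Pi16 was found in 100% and 90.0% of cells with Dpp4. With Dpp4, the ratio to the product was 1.17 and 1.10 for Pi16, 1.36 and 1.23 for Ly6c1 and 1.25 and 1.67 for Thy1. It was 1.07 and 1.06 for Ly6a and 1.01 and 1.11 for Cd34. Ly6a was found in 98.8% and 100% of cells with Dpp4. Such a ratio cannot rise far above 1 for a member found in most cells, such as Ly6a, Cd34 or Pi16. It therefore does not rank how closely these members go with Dpp4. Dpp4 and Gli1 met in 3 cells of each library, and the ratio to the product was 0.573 and 1.12. Across all thinned fibroblast-like cells, the closest pair was Ly6a and Ly6c1, neighbours in the Ly6 gene cluster, with a Pearson r of 0.65 and 0.64 over 2624 and 2521 cells. Dpp4 and Cd55 had 0.35 in both libraries, and no pair with Gli1 went above 0.06. These values pool clusters that differ in level. Within single clusters the r of Ly6a and Ly6c1 was lower. It was 0.48 and 0.46 in the Wnt2, 0.41 and 0.52 in the Meox2 and 0.31 and 0.30 in the Fmod cluster. All these correlations are over cells of 1 library each and are descriptions.

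Other genes of the Pi16 and Dpp4 fibroblast state sat with the members. A list of 21 such genes, from which the members were left out, was highest in the Wnt2 cluster in 21 of 21 cases in both libraries. Within that cluster, all 21 were higher in wild-type cells with Dpp4 (median log2 ratio 1.41), and all 20 measured were higher in knock-in cells with Dpp4 (1.27). Among cells of 8000 to 20000 UMIs, 18 of 20 measured were higher in wild-type cells (median 1.57), with Has1 at -0.03 and Tppp3 at -0.12, and 20 of 20 in knock-in cells (1.58). No share or median over all genes is given for this split by Dpp4, so how unusual these counts are is not known. The clustering did not leave out the genes of this list, so the first count is a description of the cluster. Genes of other lists were also highest in the Wnt2 cluster. These were 9 and 8 of 13 stromal and progenitor genes and 4 and 3 of 7 mature matrix genes (wild-type and knock-in). They were also 3 and 2 of 7 preadipocyte genes and 3 of 6 Col15a1 state genes in each library, beside 41.7% and 39.9% of all genes.

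Across the clusters and classes of both libraries (16 points of at least 50 cells, 9890 genes of at least 20 CPM in 1 or more), the genes most like each member were looked up by the Pearson r of log2(CPM + 1). The points share libraries and depth. Ly6a was most like Ly6c1 (0.98), Fndc1 and Cd34, and Ly6c1 most like Ly6a, Lbp and Fndc1. Cd34 was most like Fndc1 (0.99), Lamb1 and Ly6a, Pi16 most like Itm2a (0.98), Clec3b and Thy1, and Thy1 most like Radil (0.97), Itm2a and Pi16. Cd55 stood with Slc44a1 (0.94), Enc1 and Mcc, and Dpp4 with Pla1a (0.93), Islr2 and Dact2. Gli1 stood with Gask1a (0.98), Aldh1a1 and F3, all of which were highest in the Meox2 or Fmod cluster. With the other members, Dpp4 reached an r of only 0.23 to 0.65.

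Between genotypes, 1 of the 8 members passed 1.5-fold over all fibroblast-like cells. At least 1.5-fold higher in the knock-in library were 0 of 8 members, where 7.46% of 14066 genes were, and at least 1.5-fold lower was 1 of 8, where 7.40% of genes were. The member was Dpp4, at 16.4 CPM in wild-type cells and 10.8 CPM in knock-in cells (log2 ratio -0.61, interval -0.79 to -0.43). The median of the 8 log2 ratios was -0.10, beside -0.07 over all genes tested. Counts this near the background say nothing particular of the members, and they pool sexes whose ratios differed. In female cells alone 0 of 8 were higher and 3 lower (6.67% and 7.05% of 12317 genes), and in male cells alone 1 was higher and 0 lower (7.26% and 7.25% of 12907 genes). In cells of 8000 to 20000 UMIs 0 were higher and 2 lower (7.90% and 5.59% of 12417 genes).

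The other ratios of knock-in over wild-type were smaller. Cd55 stood at 101 and 77.6 CPM (-0.38, -0.45 to -0.31), Cd34 at 524 and 424 CPM (-0.31, -0.34 to -0.28) and Pi16 at 1481 and 1283 CPM (-0.21, -0.22 to -0.19). Thy1 stood at 75.6 and 92.3 CPM (0.29, 0.22 to 0.36). Gli1 stood at 21.0 and 23.2 CPM (0.15, 0.01 to 0.28), Ly6a at 720 and 751 CPM (0.06, 0.04 to 0.08) and Ly6c1 at 192 and 194 CPM (0.02, -0.03 to 0.06). How far such values vary between libraries of 1 genotype was not measured.

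The make-up of the fibroblast-like cells moved with these ratios. The Wnt2 cluster held 29.6% of the fibroblast-like cells and 33.0% of their UMIs in the wild-type library, and 15.6% and 25.1% in the knock-in library. When the 3 clusters were given the same weights in both libraries (the mean of their shares of cells), Dpp4 stood at -0.21 in place of -0.61, Cd55 at -0.08 in place of -0.38 and Pi16 at -0.02 in place of -0.21. Ly6a rose from 0.06 to 0.32 and Ly6c1 from 0.02 to 0.37 in the same step. Within the Wnt2 cluster alone the Dpp4 ratio was -0.22 (-0.41 to -0.04) and the Cd55 ratio 0.02 (-0.05 to 0.09).

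Within single clusters, the direction of a member was not always the same. In the Wnt2 cluster 0 of 8 members passed 1.5-fold (5.61% of 11774 genes were higher and 9.78% lower), and the ratios ran from -0.41 for Pi16 to 0.48 for Thy1. In the Meox2 cluster Ly6c1 was higher in the knock-in library (104 and 192 CPM, 0.88, interval 0.74 to 1.02), where 5.74% of 9927 genes were higher and 10.7% lower. In the Fmod cluster Cd55 was lower (24.7 and 14.7 CPM, -0.75, interval -0.95 to -0.55), where 8.58% of 13070 genes were higher and 6.79% lower. Pi16 was -0.41 in the Wnt2 cluster but 0.28 in the Meox2 and 0.27 in the Fmod cluster. Ly6a was higher in all 3 clusters (0.18, 0.52 and 0.54), and Cd34 was lower in all 3 (-0.22, -0.41 and -0.09).

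Markers of SMCs differed between the libraries in these cells. The 9 SMC markers summed to 172 and 544 CPM in the Wnt2 cluster, 288 and 1534 CPM in the Meox2 cluster and 805 and 758 CPM in the Fmod cluster, with 0 of 9 at 0 in each. Their part in the ratios of the members was not tested. The 9 endothelial markers summed to between 25.1 and 64.5 CPM and the 9 macrophage markers to between 24.4 and 43.2 CPM in the 6 cluster and library pairs. The 6 Schwann cell or glial markers summed to 58.0 and 96.7 CPM in the Wnt2 cluster, 69.1 and 129 CPM in the Meox2 cluster and 36.4 and 51.4 CPM in the Fmod cluster. The 5 adipocyte markers summed to 13.6 and 13.1 CPM, 10.1 and 124 CPM, and 69.5 and 38.2 CPM in the same order, with Lep at 0 in all 6. The part of these markers was not tested either.

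**Figure D4:**
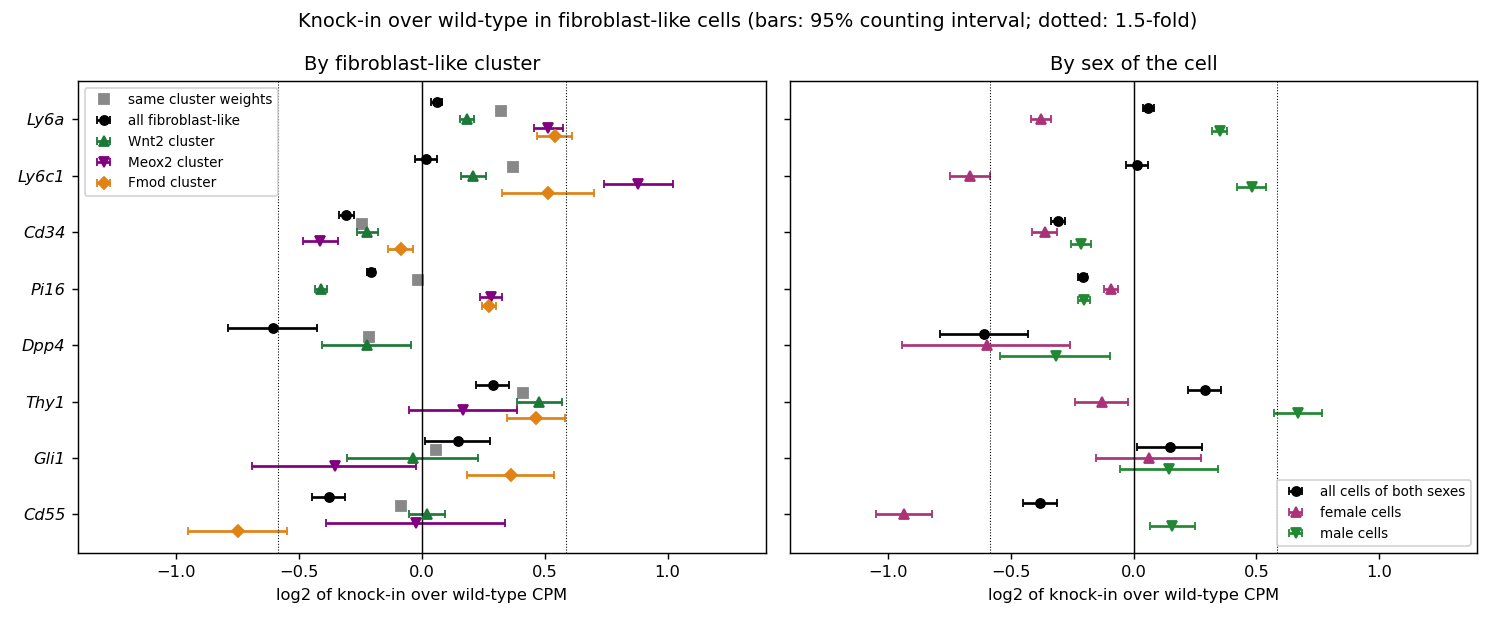
Log2 ratio of knock-in over wild-type CPM of each member in fibroblast-like cells with 95% counting intervals, on the left over all cells, with the same cluster weights in both libraries and within each cluster, on the right for female and male cells. Dotted lines mark 1.5-fold; Dpp4 crosses the line only over all cells (-0.61) and in female cells (-0.60), and Ly6a, Ly6c1, Thy1 and Cd55 have opposite signs in the sexes.

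Genes that work with Gli1 were read from a list of its pathway. Of 13 measured Hedgehog pathway genes other than Gli1, 1 was at least 1.5-fold higher and 1 lower in knock-in fibroblast-like cells, with a median of -0.13. Among all genes 7.46% were higher and 7.40% lower, with a median of -0.07, and the counts of this list and of those that follow are read beside these shares. The higher one was Hhip, a target and inhibitor of the pathway, at 108 and 242 CPM (1.16), while the coreceptors Gas1 (-0.14) and Boc (-0.33) and Gli1 itself (0.15) were within 1.5-fold.

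For Dpp4, of 7 relatives and substrates 1 was higher, Cxcl12 (150 and 293 CPM, 0.97), a chemokine that the peptidase trims, while its relative Fap stood at -0.13. Cxcl12 moved least in the Wnt2 cluster (192 and 222 CPM), which held nearly all Dpp4 UMIs of these cells. It stood at 243 and 349 CPM in the Meox2 cluster and 104 and 309 CPM in the Fmod cluster. Of 8 relatives of Ly6a and Ly6c1, 1 was higher and 2 were lower (median -0.03). Of 6 integrins and syndecans known to bind Thy1, 0 passed 1.5-fold in either direction (median -0.19). Among the 21 genes of the Pi16 and Dpp4 state, 1 was higher and 6 were lower over all fibroblast-like cells (median -0.39, against -0.07 for all genes), with Mfap5 at -0.56. Within the Wnt2 cluster 2 were higher and 2 lower (median -0.13, against -0.08 for all genes).

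Lists of neighbouring fibroblast states were counted in the same way over all fibroblast-like cells. Of 6 genes of the Col15a1 state, 1 was higher, Cxcl12, and 1 lower (median -0.17), Penk, an opioid precursor (-1.15). This list differed by cluster. In the Wnt2 cluster 0 were higher and 3 lower (median -0.41). In the Meox2 cluster 2 were higher and 0 lower (0.14), and in the Fmod cluster 3 and 0 (0.43). Penk fell only in the Wnt2 cluster (67.1 and 23.9 CPM). It rose in the Meox2 (5.92 and 11.4 CPM) and Fmod clusters (2.95 and 5.47 CPM). Of 7 preadipocyte genes 1 was higher and 2 were lower (median -0.30), with the lipase gene Lpl at 248 and 114 CPM (-1.12). Dlk1 had the largest ratio of these, at 3.55 and 0.246 CPM (-3.85), from 201 and 8 UMIs. Of 13 stromal and progenitor genes 4 were higher and 2 lower (median 0.32), with the transcription factor Prrx1 at 271 and 364 CPM (0.43). The largest ratio of that list was that of Mcam, an adhesion gene also known from SMCs and pericytes, at 0.759 and 3.82 CPM (2.33). Of 7 mature matrix genes 0 were higher and 2 lower although the median was 0.26, with Fmod at 236 and 346 CPM (0.55) and Cilp at 148 and 47.9 CPM (-1.63). Thbs4 had the largest ratio of these, at 6.95 and 0.770 CPM (-3.18). In the Wnt2 cluster 0 of 7 measured genes of this list were higher and 4 lower. Of 6 measured in the Meox2 cluster 3 were higher and 1 lower, and of 6 in the Fmod cluster 2 and 1. The 1 measured relative of Cd34, Podxl2, stood at -0.15.

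The sexes of the cells differed in several members. Of 2690 wild-type and 2908 knock-in fibroblast-like cells, 853 and 1044 were called female and 1539 and 1011 male. The rest, a larger part of the knock-in library, had UMIs of neither or both kinds and were left out. In the Meox2 cluster 133 of 526 wild-type cells were called female and 237 male. There 207 of 952 knock-in cells were called female and 203 male. The Wnt2 cluster was 28.7% and 14.8% of the female and 31.7% and 22.4% of the male cells. Dpp4 was lower in the knock-in library in both. Female cells held 12.1 and 8.02 CPM (-0.60, -0.94 to -0.26), and male cells held 19.6 and 15.7 CPM (-0.32, -0.54 to -0.09). Within the Wnt2 cluster the Dpp4 ratio of female cells was 0.04 (-0.31 to 0.38), and that of male cells was -0.25 (-0.48 to -0.03). Posterior Hox genes mark hind parts of the body axis. Fibroblast-like cells in which one was detected had a Dpp4 ratio of 0.01 (-0.58 to 0.57), and cells with none -0.67 (-0.86 to -0.48). Cells with none numbered 2372 of 2690 and 2749 of 2908. One was detected in 13.2% and 10.3% of Wnt2 cluster cells, 16.0% and 4.10% of Meox2 cluster cells and 9.43% and 4.86% of Fmod cluster cells. Cells with and without one thus differed in cluster make-up, and its part in these ratios was not tested.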

How the data were processed

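The deposited matrices hold raw UMI counts. Cell Ranger 7.1.0 is named in the submitters' processing notes. The matrices cover 1307634 wild-type and 1421297 knock-in barcodes without a cell filter. They summed to 79626104 and 85831737 UMIs. The feature and barcode lists, deposited beside the counts, carry names only. Genome build, annotation and alignment settings: not given in the sources used here.

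A barcode was kept as a cell with 1000 or more UMIs, 500 or more genes and no more than 10% mitochondrial UMIs (3697 and 6419 barcodes). Doublets were scored with scrublet per library in scanpy 1.11.5, and the highest 0.8% per 1000 cells were removed (109 and 330); the automatic threshold would have called 4 and 120. Both libraries were clustered together (2000 variable genes, 30 components, 15 neighbours, Leiden resolution 0.5, igraph 0.11.9) without the members, Ly6c2, Cd55b, Mgp, mitochondrial, ribosomal, hemoglobin or sex-linked genes. Clusters were named from 19 marker lists, and left unnamed where a second list scored over 0.65 of the best. The naming rule, which does not let lymphatic endothelial markers compete with endothelial ones, was set with the clusters in view, and differences from the study may come from it.

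UMIs were summed per cluster and library and given as CPM, with exact Poisson, conditional binomial (ratios) and Clopper-Pearson 95% intervals. Counts past 1.5-fold, list medians and alternative ratios had 0.5 added to each sum. The alternatives with the same cluster weights and with free RNA subtracted had none added, nor did other ratios. With 1 library per genotype no test was possible. Free RNA was profiled from barcodes with at most 100 UMIs, and its upper share in each class set from the marker list that gave the lowest estimate. A gene entered a comparison with at least 50 UMIs. Female cells had an Xist UMI and no Y-linked UMI, male cells the reverse. The members were named in full. For the ratios between genotypes, genes of a list were drawn from its 3 with most UMIs and the largest ratio. Not all of these are named. Hhip and Cxcl12 are named under that rule. One of the 11 gene lists is not reported here. Members, lists and rules were chosen with earlier results of these data known. Ratios and intervals were checked on simulated counts with known changes. Python 3.11.15, numpy 2.4.6, scipy 1.17.1, pandas 2.3.3 and matplotlib 3.10.9 were used.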

Additional observations from a re-analysis of the deposited data

Results flagged for a closer look

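In fibroblast-like cells, 4 members moved in opposite directions in female and male cells, with intervals that left out 0 on both sides. The difference between the sexes was not tested, since each genotype has 1 library. Ly6a had a log2 ratio of knock-in over wild-type of -0.38 in female cells (746 and 574 CPM) and 0.35 in male cells (692 and 882 CPM). Ly6c1 had -0.67 in female cells (214 and 135 CPM) and 0.48 in male cells (179 and 250 CPM). Cd55 had -0.93 in female cells (123 and 64.7 CPM) and 0.16 in male cells (93.5 and 104 CPM). Thy1 had -0.13 in female cells (95.8 and 87.6 CPM) and 0.67 in male cells (64.1 and 102 CPM).

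Within the Wnt2 cluster alone, the female and male ratios were -0.02 and 0.27 for Ly6a, -0.18 and 0.41 for Ly6c1, -0.39 and 0.35 for Cd55 and 0.20 and 0.68 for Thy1. In the Meox2 cluster Ly6a (0.59 and 0.64) and Ly6c1 (0.76 and 1.06) were higher in the knock-in library in both sexes. In the Fmod cluster the female and male ratios were 0.06 and 1.00 for Ly6a, -0.53 and 1.44 for Ly6c1, -0.43 and -0.60 for Cd55 and 0.12 and 0.81 for Thy1. No source used here says how many mice of each sex were pooled, so sex and single animals cannot be told apart.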

How the results depend on the processing

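For the ratios between genotypes 13 alternatives were run. The number of members at least 1.5-fold higher in knock-in fibroblast-like cells, 0 as reported, was 1 (Thy1) in male cells and 0 in the other 12. The number at least 1.5-fold lower, 1 as reported, was 2 in cells of 8000 to 20000 UMIs (Dpp4 and Cd55), 3 in female cells (Dpp4, Cd55 and Ly6c1), and 0 in male cells, with the same cluster weights in both libraries, and with mitochondrial and ribosomal genes left out of the total (Dpp4 at -0.58). Dpp4 stayed lower in all 13, from -1.33 to -0.21, as did Cd34 and Pi16, and Gli1 stayed higher in all 13, from 0.02 to 0.17. Ly6a turned to -0.15 in cells of 8000 to 20000 UMIs, -0.38 in female cells, -0.01 at resolution 1.0, -0.26 with each library clustered separately and -0.07 with at least 2000 UMIs, so its direction over all fibroblast-like cells is not settled. Ly6c1, at 0.02, turned to -0.10, -0.67, -0.06, -0.30 and -0.10 under the same 5. Cd55 turned to 0.16 in male cells and Thy1 to -0.13 in female cells. The count of members highest in 1 shared fibroblast-like cluster, 7 in each library, was 6 to 8 in the knock-in and 6 or 7 in the wild-type library. The cause of these shifts was not tested. The depth range for cells with and without a Dpp4 UMI was chosen after seeing the data. No paired analysis was possible because each genotype has 1 library. Dpp4 and Gli1 are shallow, so absence in a cell is not shown by 0 UMIs.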

Other observations

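Clusters that received no class name also held members. In a cycling cluster led by Prc1, Hmmr and Pbk (115 wild-type and 28 knock-in cells), Ly6a stood at 457 and 331 CPM, Pi16 at 810 and 624 CPM, and Dpp4 at 13.2 CPM in the wild-type library with 1 UMI in the knock-in library. In a small cluster that mixes mast and T cell genes (led by Mcpt4, Trbc2 and Cma1; 7 and 32 cells), the knock-in cells held Dpp4 at 125 CPM (101 to 154) and Thy1 at 304 CPM (265 to 346), with Ly6a at 24.5 CPM. In a cluster led by Chrm2, Mdga2 and Tfap2b (58 and 192 cells), Dpp4 had 0 UMIs in both libraries, Cd34 stood at 301 and 150 CPM and Gli1 at 9.49 and 14.6 CPM.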
